A study of Mus musculus with 16 samples.

Results

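Nqo1 and 9 further genes, most of which encode liver enzymes acting on quinones, carbonyls, epoxides and aldehydes, were followed across 4 mouse genotypes. Pir, which encodes an iron-binding nuclear protein with quercetin dioxygenase activity, is counted here with the enzymes. The 10 genes, Nqo1, Pir, Cbr1, Cbr3, Ptgr1, Akr7a5, Ephx1, Aox1, Aox3 and Aldh1a1, were taken by symbol from the 18209 named genes of the expression table. All 10 were in the table and all 10 passed the filter on low values, and the choice used no measured value of this table, although earlier results of these data were known when it was made.

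Gene expression was measured by RNA-sequencing of ribosomal RNA-depleted whole liver RNA from mice labelled male and 20 days of age, with 4 libraries for each genotype. All mice carried Trsp, the gene of the selenocysteine tRNA without which selenoproteins are not made, as the floxed allele Trspfl/fl. In Trspfl/fl mice, called control here, it was intact. In Trspfl/fl::AlbCre mice, called Trsp knockout, a Cre recombinase driven by the albumin promoter deleted it in hepatocytes. Keap1C226SC613Shomo::Trspfl/fl mice, called Keap1 mutant, were homozygous in every cell for KEAP1 with serine in place of 2 cysteines. Keap1C226SC613Shomo::Trspfl/fl::AlbCre mice, called compound mutant, carried both changes. The share of hepatocytes, or of other liver cells, that the Cre reached was not measured here. The control and Keap1 mutant labels name no Cre, so an effect of the Cre itself cannot be told apart from that of the deletion. The labels do not say that each library came from a separate mouse, so the p-values cover the spread between these libraries.

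KEAP1 holds the transcription factor NRF2 for degradation, and when its sensor cysteines react with oxidants or electrophiles NRF2 accumulates, pairs with a small MAF protein and binds antioxidant response elements in the DNA. The cysteines replaced here are among those known to sense oxidative stress. NQO1, which reduces quinones by the transfer of an electron pair and so bypasses the reactive semiquinone, is a classical NRF2 target and its mRNA is widely used as a readout of the pathway in liver. Several carbonyl reductases, epoxide hydrolase and aldehyde-handling enzymes are also reported NRF2 targets, and in hepatocytes they dispose of reactive groups on foreign compounds and on products of lipid oxidation. The comparisons address how far the response of these enzymes to the loss of selenoproteins depends on the KEAP1 cysteines.

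Start-site sequence was available for all 10 genes from RefSeq (GRCm38.p6), as windows from 250 bases before to 50 bases after the annotated start, and 2 motifs were searched on both strands in these windows. The antioxidant response element core was written TGACNNNGC and the more fully specified NRF2-MAF site TGANTCAGC, so that a stretch can match both. Pir was the only member with a match. It had the core at -214 and at +20 from the start, both on the minus strand, and the first of these, TGACTCAGC, also matched the NRF2-MAF site. Across all mouse windows of this length the core was found in 12.4% and the NRF2-MAF site in 1.19% of 32851. The Pir window is shown because it holds these matches, and the Nqo1 window because Nqo1 was the only enzyme whose values were apart in all 4 genotypes, while its window holds neither motif. Capitals mark the letters of a match, read on the strand opposite to the gene.
Pir (chrX:164269181-164269480, plus strand): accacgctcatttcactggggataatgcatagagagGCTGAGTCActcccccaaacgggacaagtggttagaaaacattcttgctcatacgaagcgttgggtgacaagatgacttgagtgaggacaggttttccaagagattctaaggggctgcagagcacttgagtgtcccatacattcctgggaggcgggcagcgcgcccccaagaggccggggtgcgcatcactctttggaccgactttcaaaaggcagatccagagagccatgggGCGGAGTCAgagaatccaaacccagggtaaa
Nqo1 (chr8:107403156-107403455, minus strand): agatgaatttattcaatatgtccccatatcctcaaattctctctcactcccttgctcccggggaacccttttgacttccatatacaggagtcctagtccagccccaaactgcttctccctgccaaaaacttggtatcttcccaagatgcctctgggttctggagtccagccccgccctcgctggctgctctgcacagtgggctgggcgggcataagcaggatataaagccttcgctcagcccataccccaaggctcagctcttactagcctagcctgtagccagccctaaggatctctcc
A match is a description of letters, and the absence of one says only that these letters do not occur in this window.

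In the GRCm38 annotation (GENCODE M21), which is not the annotation version of the expression table, Nqo1 lies on chromosome 8 (107388225 to 107403206, minus strand, 6 exons) and Pir on the X chromosome (164269371 to 164373011, plus strand). Cbr1 and Cbr3 are close neighbours on chromosome 16, at 93605853 to 93610505 and 93683215 to 93690990, both on the plus strand. Aox1 and Aox3 likewise adjoin on chromosome 1, at 58029931 to 58106413 and 58113130 to 58200698. Ephx1 lies elsewhere on chromosome 1, Ptgr1 and Akr7a5 on chromosome 4 and Aldh1a1 on chromosome 19. Of the 31-base stretches of Nqo1 transcripts, 0% also occurred in another gene. The share was 7.83% for Cbr1, mostly with Gm5678, 5.70% for Aldh1a1, all with Aldh1a7, 3.25% for Ephx1, 2.31% for Cbr3, all with Cbr1, and at most 1.32% for the others. Counts of Cbr1, Cbr3, Ephx1 and Aldh1a1 may therefore hold a few reads of these copies.

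The libraries held 11386715 to 19164113 reads assigned to genes. The selenoprotein mRNAs Gpx1 and Selenow fell in the Trsp knockout, by 2.11 and 1.39 on the log2 scale, and in the compound mutant against the Keap1 mutant, by 1.84 and 1.15. Selenop, the secreted selenoprotein, had log2 fold changes of -1.01 (adjusted p = 0.0161) and -1.31 (adjusted p = 0.00265), of which the second was called, and Gpx4 of -0.03 and 0.22, neither called. The first compound mutant library, labelled male, held 28799 Xist reads, where the remaining 15 had 22 to 50, and only 2 reads of 4 Y-linked genes, where the remaining 15 had 1830 to 3066. Every result that involves the compound mutant was therefore also computed without it. Some compound mutant libraries, replicates 1 and 3 most, were also low in hepatocyte genes. The summed normalized count of 6 hepatocyte genes was 771375, 1448734, 1124912 and 1527351 in compound mutant replicates 1 to 4. It was 1485899 to 1801069 in control and 1347419 to 1800121 in Trsp knockout livers, so these ranges overlapped that of the compound mutant. In Keap1 mutant livers the same sum was 1674450 to 2051477, wholly above the compound mutant range. The sum of 6 pericentral hepatocyte genes (Glul, Cyp2e1, Cyp1a2, Oat, Slc1a2 and Rgn) was 37173, 97186, 71701 and 89275 in the same 4 libraries. It was 108494 to 166021 in control and 92037 to 184341 in Trsp knockout livers. In Keap1 mutant livers the pericentral sum was 102109 to 158724, again wholly above the compound mutant range. The sum of 5 erythroid genes was 34563 in compound mutant replicate 1 and 5690 to 8685 in the other 3. None of these genes was called in any comparison.

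**Figure D1:**
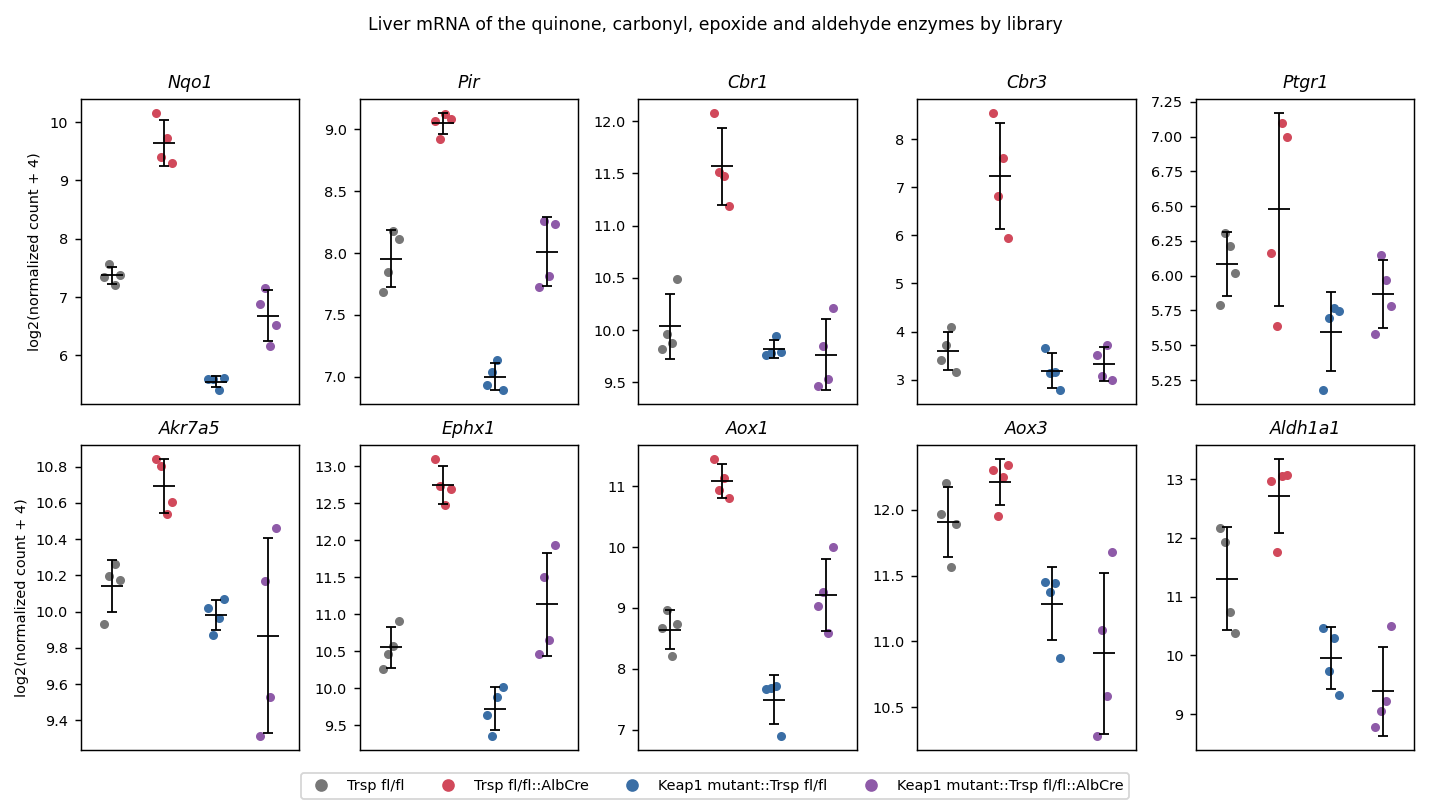
Points are single libraries, as log2 of the normalized count plus 4, for each of the 10 genes in the 4 genotypes; the horizontal mark and bar give the mean and SD of 4 libraries, and the vertical axes differ between genes. Nqo1 separates all 4 genotypes, the highest of each being below the lowest of the next. The compound mutant points of Akr7a5, Ephx1, Aox1, Aox3 and Aldh1a1 are widely spread.

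Levels differed strongly among the enzymes. As reads per kilobase of transcript scaled to depth (RPKM, with the length of the longest principal transcript in the GRCm38 annotation), the control livers held 79.8 of Aldh1a1, 57.2 of Akr7a5, 56.8 of Ephx1, 56.1 of Cbr1 and 55.1 of Aox3. Pir at 10.1, Nqo1 at 6.83 and Aox1 at 5.94 formed a lower group, followed by Ptgr1 at 1.83 and Cbr3 at 0.47. In the Trsp knockout, Ephx1 was at 261 RPKM and Nqo1 at 34.4, and Cbr3 had come up to 10.2. These are means of 4 libraries.

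Comparison of Trsp knockout with control livers addresses the response to the loss of hepatocyte selenoproteins with unaltered KEAP1. A gene was called when its absolute log2 fold change was over 1 with an adjusted p under 0.01 in limma over 15781 genes, the limits used by the study. Of the 10 enzymes, 6 rose (Nqo1, Pir, Cbr1, Cbr3, Ephx1 and Aox1) and none fell, where 0.19% of all tested genes were called higher and 0.0253% lower. Cbr3 passed the filter on low values only through its knockout libraries. The knockout libraries lay above all control libraries for 7, the additional gene being Akr7a5, against 3.4% of all genes; none lay wholly below, against 2.62%. The median log2 fold change of the 10 was 1.47, and that of all genes -0.01. Whole liver RNA does not tell more cells from more RNA per cell. The summed count of 5 erythroid genes was 5422 to 12749 in the knockout and 12621 to 22918 in control livers. Their median log2 fold change was -1.26, with 0 of 5 positive and 0 called. The part of cell composition in the enzyme changes was not tested. The 6 hepatocyte genes had a median log2 fold change of -0.10 in this comparison.

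Nqo1 held 159, 185, 144 and 162 normalized counts in the control libraries. In the knockout it held 1143, 673, 845 and 623. The lowest knockout library was thus more than 3 times the highest control, and the log2 fold change was 2.27 (SE 0.21, adjusted p = 3.01e-05). Pir, an iron-binding nuclear protein with quercetin dioxygenase activity, held 202 to 286 in control and 481 to 553 in knockout livers, with a log2 fold change of 1.09 (SE 0.14, adjusted p = 6.59e-04).

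Among the carbonyl-handling enzymes, the carbonyl reductases Cbr1 and Cbr3 rose and the others were not called. Cbr1, which reduces quinones, prostaglandins and other carbonyls with NADPH, held 898, 991, 937 and 1435 in control livers. Its knockout values were 4334, 2914, 2853 and 2337, a log2 fold change of 1.53 (SE 0.20, adjusted p = 6.10e-04). The sister gene Cbr3 was close to absent in control livers, with 4 to 14 reads in a library. Knockout livers held 373, 109, 191 and 58.1 normalized counts of Cbr3 against 6.66, 9.10, 13.1 and 4.97. The log2 fold change was 3.64 (SE 0.43, adjusted p = 3.13e-04), a fold of 12.4 from means of log2 values that carry an added constant of 4. The ratio of mean normalized counts, which holds no constant and weighs the highest library most, was 21.6. Cbr3 also varied most among knockout libraries, over a range from 59 to 368 reads. Fitted on the control and knockout libraries alone, neither Cbr1 (adjusted p = 0.0189) nor Cbr3 was called.

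Ptgr1, which reduces the double bond of unsaturated carbonyls and of keto-prostaglandins, was not called. Its knockout values of 67.8, 45.9, 133 and 124 spanned the control range of 51.4 to 75.1, with a log2 fold change of 0.39 (95% CI -0.20 to 0.98, adjusted p = 0.634). Akr7a5, an aldo-keto reductase that acts on aflatoxin aldehydes, held 974 to 1224 in control and 1482 to 1829 in knockout livers, without overlap. Its log2 fold change of 0.55 (95% CI 0.15 to 0.96, adjusted p = 0.270) lay below the fold limit.

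Ephx1, the microsomal epoxide hydrolase, held 1220, 1408, 1524 and 1920 in control livers. It held 8789, 6773, 5708 and 6611 in the knockout, a log2 fold change of 2.20 (SE 0.27, adjusted p = 4.47e-04). The aldehyde oxidase Aox1, a molybdenum-containing flavoenzyme, held 405, 494, 291 and 420 in control and 2799, 1964, 2236 and 1794 in knockout livers (log2 fold change 2.44, SE 0.27, adjusted p = 1.39e-04). Its neighbour Aox3, a close relative and in control livers the more abundant per length, held 3029 to 4722 and 3959 to 5188. These ranges overlapped, and the log2 fold change was 0.30 (95% CI -0.21 to 0.81, adjusted p = 0.673). Aldh1a1, which oxidizes retinaldehyde and lipid-derived aldehydes, varied widely among control livers, at 4578, 3917, 1711 and 1336. With 8006, 3472, 8543 and 8571 in the knockout its log2 fold change was 1.41 (95% CI 0.46 to 2.35, adjusted p = 0.226), which did not pass.

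**Figure D2:**
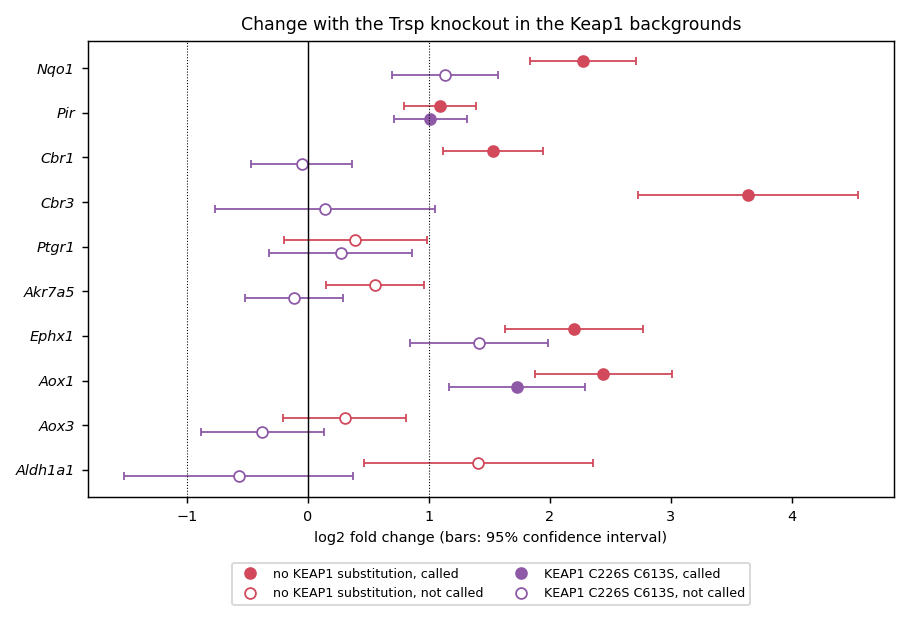
The horizontal axis gives the log2 fold change with the Trsp knockout for each gene, without the KEAP1 substitutions and with them; points are limma estimates from 4 libraries a genotype, bars are 95% confidence intervals, filled points were called, and dotted lines mark the fold limit of 1. Cbr1 and Cbr3 lie at 1.53 and 3.64 without the substitutions and near 0 with them, while Pir lies at 1.09 and 1.01.

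The same deletion was then examined in livers with substituted KEAP1, as compound mutant against Keap1 mutant. Here 2 of the 10 enzymes rose, Aox1 and Pir, and none fell, where 0.0697% of all tested genes were called higher and 0.101% lower. The groups did not overlap for 4 (Nqo1, Pir, Ephx1 and Aox1), all higher, against 3.97% of all genes, and 3.71% were apart and lower. The median log2 fold change of the 10 was 0.21. Neither call was stable. Leaving out Keap1 mutant replicate 1, Keap1 mutant replicate 4 or compound mutant replicate 2 left 0 of the 2, and leaving out Keap1 mutant replicate 2, Keap1 mutant replicate 3 or compound mutant replicate 4 left 1. Without compound mutant replicate 1, the library with Xist reads, 2 were called, Pir and Ephx1. The 6 pericentral genes had a median log2 fold change of -1.05 and the 6 hepatocyte genes of -0.55 in this comparison, and the part of these in the enzyme values was not tested.

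Nqo1 held 44.4, 44.1, 38.3 and 44.9 in Keap1 mutant livers, a narrow range far below that of control livers. In the compound mutant it held 114, 139, 67.8 and 88.0. The groups were apart, yet the log2 fold change of 1.13 (SE 0.21, adjusted p = 0.0171) missed the limit on p. Pir held 118, 128, 136 and 115 in the Keap1 mutant and 208, 302, 222 and 298 in the compound mutant. Its log2 fold change of 1.01 (SE 0.14, adjusted p = 0.00263) stood just past the fold limit, and was 92.6% of that with unaltered KEAP1. Pir is X-linked, and its lowest compound mutant value was that of the library with Xist reads.

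Aox1 held 199, 202, 207 and 115 in the Keap1 mutant and 519, 610, 379 and 1016 in the compound mutant, with a log2 fold change of 1.73 (SE 0.27, adjusted p = 0.00562). Ephx1 held 793, 650, 941 and 1029 in the Keap1 mutant. In the compound mutant it held 1407, 2904, 1600 and 3897, and the log2 fold change of 1.41 (SE 0.27, adjusted p = 0.0208) did not pass. Replicates 1 and 3 of the compound mutant were the lower pair for Ephx1, Pir, Aox1, Akr7a5, Cbr1 and Aox3. These 2 libraries were also the lowest of the compound mutant in summed hepatocyte and pericentral genes. For the remaining enzymes the lower pair was another, replicates 3 and 4 for Nqo1, 2 and 4 for Cbr3, 1 and 4 for Ptgr1 and 1 and 2 for Aldh1a1. A link between these sums and the enzyme values was not tested.

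Values of the carbonyl reductases overlapped between the genotypes. Cbr1 held 865 to 980 in the Keap1 mutant and 704, 916, 738 and 1182 in the compound mutant, with a log2 fold change of -0.05 (95% CI -0.47 to 0.36, adjusted p = 0.946). Cbr3 stayed at 3 to 10 reads in the Keap1 mutant and 4 to 10 in the compound mutant, a log2 fold change of 0.14 (95% CI -0.76 to 1.05, adjusted p = 0.929); at this depth a small change could not be seen. For Akr7a5, Ptgr1, Aox3 and Aldh1a1 the log2 fold changes were -0.11, 0.27, -0.38 and -0.57, and none passed. The values of Cbr1 and Akr7a5 changed sign when the reads were scaled to library totals.

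The difference of the knockout effects between the Keap1 backgrounds was tested as an interaction in limma. None of the 10 enzymes was called, where 0.0317% of all genes were called more positive and 0.0253% more negative. All 10 estimates were negative, where 7925 of 15781 genes had a positive one. The estimates of Pir and Ptgr1 changed sign with scaling to library totals. Of the 10, 5 were at an unadjusted p under 0.05 (10.8% of all genes), and 0 were called by limma voom. The effects share no library, but the 10 genes share all of theirs. Cbr3 differed by -3.49 (SE 0.60, adjusted p = 0.0376) and Cbr1 by -1.58 (SE 0.28, adjusted p = 0.0380), both of which missed the limit of 0.01. For Nqo1 the difference was -1.14 (95% CI -1.76 to -0.52, adjusted p = 0.244), and for Aldh1a1 -1.98 (95% CI -3.32 to -0.64, adjusted p = 0.346). It was -0.72 for Aox1, -0.78 for Ephx1 and -0.08 (95% CI -0.50 to 0.34, adjusted p = 0.897) for Pir.

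Comparison of Keap1 mutant with control livers addresses the KEAP1 cysteines where selenoproteins are intact. Nqo1 alone of the 10 was called and fell, from 144 to 185 in control down to 38.3 to 44.9 normalized counts, a change of -1.82 on the log2 scale (SE 0.21, adjusted p = 0.00147). Over all genes 0.00634% were called lower and the same share higher. The call was lost without control replicate 2 (log2 fold change -1.76) and without Keap1 mutant replicate 3 (-1.78). All Keap1 mutant libraries were below all control libraries for 6 of the enzymes (Nqo1, Pir, Ptgr1, Ephx1, Aox1 and Aox3), against 3.04% of all genes, and for none above, against 3.19%. The log2 fold changes of the others in this group were -0.96 for Pir (adjusted p = 0.0193), -1.15 for Aox1 (0.152), -0.83 for Ephx1 (0.332), -0.62 for Aox3 (0.436) and -0.49 for Ptgr1 (0.640). Aldh1a1 had a value of -1.35 with overlapping groups, and Cbr1, Cbr3 and Akr7a5 lay between -0.41 and -0.16. The summed count of the 5 erythroid genes was 4348 to 9251 in the Keap1 mutant, below the control range. Their median log2 fold change was -1.28, with 0 of 5 positive and 0 called. The summed count of 5 B-cell genes was 273 to 585, above the control range of 108 to 186. Their median log2 fold change was 1.48, with 5 of 5 positive and 0 called. The part of these cells in the enzyme values was not tested.

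The largest number of calls came with the substitutions in selenoprotein-deficient livers, compound mutant against Trsp knockout. Of the 10 enzymes 8 fell, all except Ptgr1 and Akr7a5, and none rose, where 0.456% of all tested genes were called lower and 0.114% higher. Among the 8, Cbr3 was tested only through its knockout libraries. The groups did not overlap for 9, all lower, against 4.08% of all genes, and 4.53% were apart and higher. The median log2 fold change of the 10 was -1.71, and that of all genes 0.01. Nqo1 fell from 623 to 1143 down to 67.8 to 139 normalized counts (log2 fold change -2.96, SE 0.21, adjusted p = 4.37e-07). Cbr3 fell by 3.91 (SE 0.43, adjusted p = 8.32e-05) and Cbr1 by 1.80 (SE 0.20, adjusted p = 7.70e-05) on the log2 scale.

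Aldh1a1 fell by 3.33 (SE 0.45, adjusted p = 6.84e-04), with 434, 528, 591 and 1441 in the compound mutant. Of the aldehyde oxidases, Aox1 fell by 1.87 (SE 0.27, adjusted p = 0.00116) and Aox3 fell by 1.30 (SE 0.24, adjusted p = 0.00916). Aox3 held 1239, 2172, 1532 and 3284 in the compound mutant, and its call, the nearest to the limit, was lost on leaving out any of 13 of the 16 libraries. Ephx1 fell by 1.61 (SE 0.27, adjusted p = 0.00458), a call lost on leaving out any of 6 libraries, and Pir by 1.04 (SE 0.14, adjusted p = 7.41e-04). Akr7a5, at 632, 1147, 734 and 1404 in the compound mutant, had a log2 fold change of -0.83 (adjusted p = 0.0339), and Ptgr1 one of -0.61 (adjusted p = 0.271).

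Without compound mutant replicate 1, the library with Xist reads, 5 of the 8 remained called, Nqo1, Cbr1, Cbr3, Aox1 and Aldh1a1, and the same 5 without replicate 3. Fitted on these genotypes alone, 4 remained called (Nqo1, Cbr1, Cbr3 and Aldh1a1). The 6 pericentral genes had a median log2 fold change of -1.16 here and the 6 hepatocyte genes of -0.34, 0 of either list being called. The 5 B-cell genes had a median of 0.96, with 5 of 5 positive, 0 called and a summed count of 164 to 464 in the compound mutant against 104 to 165 in the knockout. The part of these lists in the decrease was not tested.

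**Figure D3:**
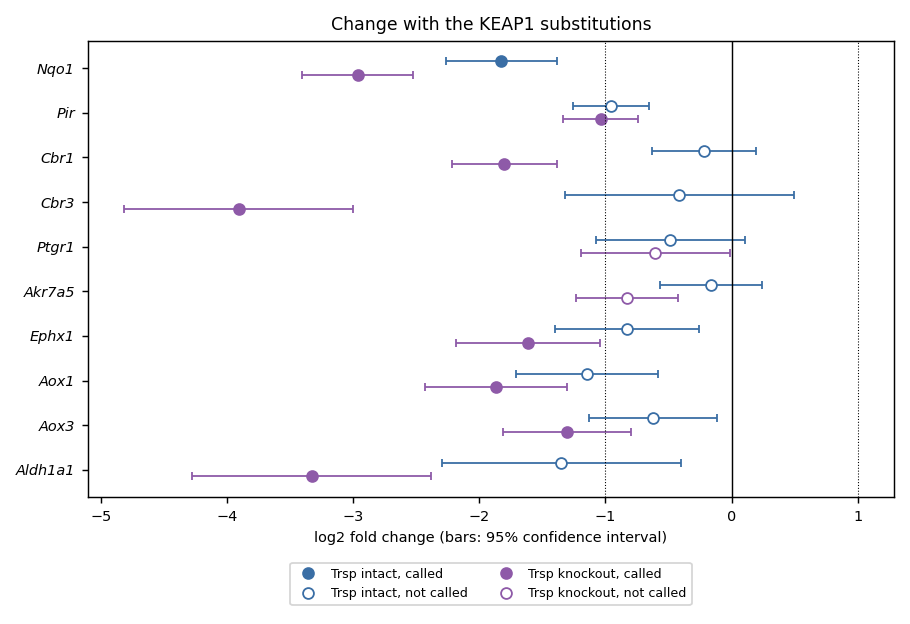
The horizontal axis gives the log2 fold change with the KEAP1 substitutions for each gene, with Trsp intact and in Trsp knockout livers; points are limma estimates from 4 libraries a genotype, bars are 95% confidence intervals, filled points were called, and dotted lines mark the fold limit of 1. All 20 estimates are below 0; Nqo1 alone was called with Trsp intact, at -1.82, and 8 genes in the knockout.

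When compound mutant and control livers were compared, none of the 10 enzymes was called in limma, where 0.057% of all genes were called higher and 0.076% lower. Of the 10, 5 were at an unadjusted p under 0.05 (12.8% of all genes), and 0 were called by limma voom. The groups did not overlap for 1, Nqo1, which was lower in the compound mutant, against 3.14% of all genes, and 3.09% were apart and higher. Its log2 fold change was -0.69 (95% CI -1.13 to -0.25, adjusted p = 0.149). Pir was at 0.06 (95% CI -0.24 to 0.35), Aox1 at 0.58 and Ephx1 at 0.58, and Aldh1a1 at -1.92 (adjusted p = 0.0647). For Aox3 the 95% CI was -1.51 to -0.49 (adjusted p = 0.0727). Without compound mutant replicate 4 Aox3 was called, with a log2 fold change of -1.26. These comparisons share libraries with those above and are not independent of them.

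The order of the genotypes thus differed among the enzymes. Nqo1 rose in the order Keap1 mutant, compound mutant, control and Trsp knockout with no overlap between neighbours. For Pir, Ephx1 and Aox1 the Keap1 mutant was lowest and apart, compound mutant and control overlapped, and the knockout was apart above them. For Cbr1, Cbr3 and Akr7a5 the other three genotypes overlapped and the knockout alone stood apart. For Aox3 the Keap1 mutant lay below control and the knockout, the compound mutant lay below the knockout, and the remaining pairs, compound mutant and control included, overlapped. Ptgr1 and Aldh1a1 showed overlap between all neighbours. The median SD of the log2 value within a genotype was 0.15 for Akr7a5 and 0.27 for Nqo1 but 0.70 for Aldh1a1.

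**Figure D4:**
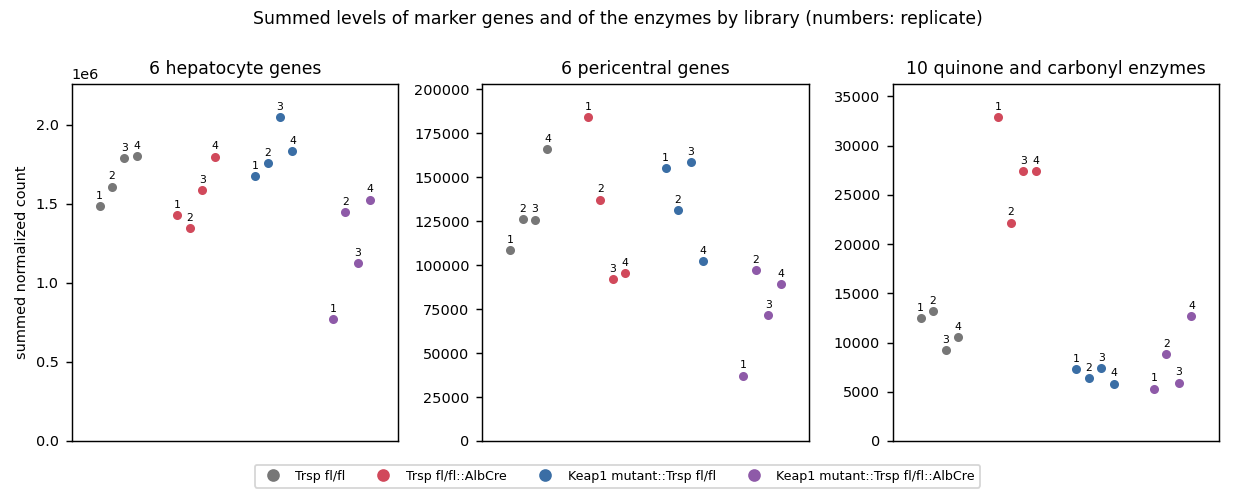
Summed normalized counts of 6 hepatocyte genes, of 6 pericentral hepatocyte genes and of the 10 enzymes are plotted for each library, with the replicate number above each point and axes from 0. Compound mutant replicates 1 and 3 are the lowest of their genotype in all 3 sums, and the enzyme sum of the 4 knockout libraries, 22175 to 32927, is above that of every other library.

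Across the 16 libraries the members moved together, as a description over libraries that share genotype: Pearson's r of the log2 values over the 45 pairs was 0.45 to 0.95 with a median of 0.74, and after removal of the genotype means it was -0.21 to 0.92 with a median of 0.22. Outside the 10 enzymes, the genes most like Nqo1 were Fth1 (r = 0.963), the ferritin heavy chain, Htatip2 (0.950), Srxn1 (0.949), which encodes sulfiredoxin, Ldhd (0.939) and 9130409I23Rik (0.937). The nearest to Ephx1 were Gsta2 (0.968), an alpha class glutathione S-transferase, and Thnsl2 (0.961), and the nearest to Pir were Thnsl2 (0.941) and Gsta2 (0.937); Pir was closer still to the members Ephx1 (0.951) and Aox1 (0.947). Aox1 was closest to Ugdh (0.973), which makes UDP-glucuronic acid, and Slc39a5 (0.961). Cbr1 was closest to Bag4 (0.951) and the glutathione S-transferase Gstp1 (0.951), and Cbr3 to Vtcn1 (0.961), an immune checkpoint ligand, and Gstp2 (0.940). Aldh1a1 was closest to Aldh1a7 (0.971), with which it shares sequence, and Ces1f (0.958). Aox3 was closest to Msra (0.954) and Haao (0.951), Akr7a5 to Slc25a5 (0.964) and Acbd5 (0.953), and Ptgr1 to Gm15387 (0.870) and Ccdc34 (0.867).

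A wider list of 67 other quinone, carbonyl, epoxide and aldehyde enzymes and molybdenum cofactor genes was examined in the same way. Of these, 61 were in the table and 59 were tested. With the Trsp knockout in unaltered KEAP1, 0 of 59 were called, with 8 at an unadjusted p under 0.05 and 0 called by limma voom. Since 0.19% of all genes were called higher and 0.0253% lower, a count of 0 in 59 is near the background, and 1741 of the 15781 genes were at an unadjusted p under 0.05. The median log2 fold change was 0.10. Akr1c19, an aldo-keto reductase, came nearest, with 464 to 844 reads in control and 1551 to 2980 in knockout livers and a log2 fold change of 1.91 (adjusted p = 0.0181). Next in size were Aldh1a7 at 0.96, Adh4, an alcohol dehydrogenase, at -0.87, and Mocos, which puts the sulfur on the molybdenum cofactor that aldehyde oxidases need, at 0.68. In the compound mutant against the Keap1 mutant 0 of 59 were called, with 24 at an unadjusted p under 0.05 (13.6% of all genes) and 0 by limma voom, and a median of -0.27. Between Keap1 mutant and control 0 were called, with 6 at an unadjusted p under 0.05 (9.07% of all genes) and 0 by limma voom.

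With the substitutions in knockout livers 1 of the 59 was called, Aldh1a7, the close copy of Aldh1a1, which fell by 3.50 on the log2 scale (SE 0.51, adjusted p = 0.00134). It held 629 to 3040 reads in the knockout and 119 to 321 in the compound mutant. The median of the 59 was -0.42, and 33 were at an unadjusted p under 0.05, where 17.6% of all genes were. Neither the compound mutant against control nor the interaction called any of them, with 20 and 17 at an unadjusted p under 0.05 (12.8% and 10.8% of all genes) and 0 by limma voom.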

How the data were processed

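Libraries were made from ribosomal RNA-depleted liver RNA. Per the study's methods, the authors quantified the reads with Salmon (version 1.5.1) on GENCODE mouse transcripts (version 30). They ran the differential expression analysis in iDEP. The form of the deposited values was inferred here from the values themselves. They are log2 of the normalized count plus a constant of 4, where a normalized count is reads divided by a size factor. Whole reads were recovered from them: 100% of values up to 30 reads were whole within 0.1 read. Of 18578 rows, 369 name no gene (0.274 to 0.627% of reads) and were left out.

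The deposited log2 values were fitted with limma (version 3.58.1, R 4.3.3) as a mean per genotype over all 16 libraries, with a mean-variance trend and Benjamini-Hochberg adjustment, over 15781 genes that reached a normalized count of 10 in 4 or more libraries. To be called, a gene had to change by more than 1 on the log2 scale, up or down, at an adjusted p under 0.01. RPKM was computed from the recovered reads. The procedure was tested on simulated data. Alternatives were other constants, filters, scalings and models, a replicate block, an adjusted p under 0.05, and each library left out in turn. The 10 genes, the gene lists and the tests were chosen with earlier results of these data known. Genes named are the 10, those called in the wider list or largest there in the knockout comparison, and, for likeness, the 5 nearest to Nqo1 and the 2 nearest to each other enzyme.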

Additional observations from a re-analysis of the deposited data

Results flagged for a closer look

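Of 40 groups of 4 libraries (10 genes in 4 genotypes), 6 held a library farther from the other 3 than Dixon's 95% limit, where chance gives about 2. Of these, 5 were in the Keap1 mutant. Nqo1 was low in replicate 3, at a log2 value of 5.40, and Cbr1 was high in the same library, at 9.94. Aox1 and Aox3 were low in replicate 4, at 6.89 and 10.87. Ptgr1 was low in replicate 1, at 5.18. The remaining one was Aldh1a1 in Trsp knockout replicate 2, low at 11.76.

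The estimated knockout effect differed with substituted KEAP1 by -1.58 for Cbr1 and by -3.49 for Cbr3 on the log2 scale. Both had an adjusted p between 0.01 and 0.05 in the limma interaction test, and neither was called. Under the alternatives the adjusted p ran from 0.0097 to 0.112 for Cbr1 and from 0.0030 to 0.402 for Cbr3. Cbr3 was tested only through its knockout libraries.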

How the results depend on the processing

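The 6 enzymes higher in the Trsp knockout were 6 with any single library left out and within 1.5 times that count under the other alternatives run. For the 2 higher in the compound mutant against the Keap1 mutant, the count was 4 with scaling to library totals and with an adjusted p under 0.05, 1 without the trend and with limma voom, 0 with only the groups compared, and 0 to 3 with single libraries left out. Nqo1, the 1 lower in the Keap1 mutant, was 0 with limma voom, and 0 to 1 with single libraries left out. The 8 lower in the compound mutant against the knockout became 4 with only the groups compared, and 5 to 9 with single libraries left out. Against control, 0 to 1 were lower with libraries left out. In the interaction 2 were more negative with an adjusted p under 0.05, and 0 to 1 with libraries left out, Cbr1 without compound mutant replicate 4 and Cbr3 without Trsp knockout replicate 4. The cause of these moves was not tested, apart from the fewer libraries that some use.

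Scaling to library totals moved the median log2 fold change of all genes in the comparisons with the compound mutant, to 0.12 against the Keap1 mutant, 0.13 against the knockout and 0.11 against control. It turned the sign of 4 values near 0: Cbr1 (0.076) and Akr7a5 (0.015) in the compound mutant against the Keap1 mutant, and the interactions of Pir (0.048) and Ptgr1 (0.0022). With single libraries left out, those values ran from -0.20 to 0.046 for Cbr1, from -0.31 to 0.070 for Akr7a5, from -0.16 to 0.013 for the interaction of Pir and from -0.40 to 0.086 for that of Ptgr1, and Pir in the compound mutant against control ran from -0.035 to 0.15.

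Replicate numbers did not pair the libraries: over 24 same-numbered pairs the correlation of deviations from genotype means was -0.32 to 0.31 (median -0.04), and 2 of 16 libraries were nearest to their own number. With the replicate block, 1 enzyme was higher in the compound mutant against the Keap1 mutant, since Aox1 (adjusted p = 0.0232) was no longer called, and 7 were lower against the knockout, since Aox3 (adjusted p = 0.0277) was not; the block changed no other call.

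Cbr3, with 3 to 14 reads outside the knockout, limits what its fold changes can show; with limma voom its rise in the knockout was 4.09 on the log2 scale, its value in the compound mutant against the knockout was -4.52, and neither was called.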
